A study of Mus musculus with 6 samples.

Results

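Fibroblast growth factor (FGF) genes of the embryonic mouse forebrain were followed from ligand to target gene. The set held 10 of the 52636 genes in the deposited table. They were selected by gene symbol for their place in the pathway, as 3 secreted ligands (Fgf8, Fgf15 and Fgf17), 3 receptors (Fgfr1, Fgfr2 and Fgfr3), 2 Sprouty inhibitors (Spry1 and Spry2) and 2 transcription factors of the ETS family (Etv4 and Etv5). Each symbol had a single gene ID, and all 10 members passed the filter on low counts that left 16869 genes for testing.

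RNA came from forebrain cells of E12.5 embryos, sorted for the surface protein Prominin1 and labelled as cortical radial glia, the dividing progenitors that line the ventricles. The mutants, named SmadNes, were Nestin:Cre+/0 on top of Smad1wt/fl and Smad5wt/fl, with Cre recombinase under the Nestin promoter, which is active in neural progenitors. The control littermates were Nestin:Cre0/0 with the same Smad1wt/fl and Smad5wt/fl alleles, so both groups carried the floxed alleles and both kept a wild-type copy of each Smad gene. All embryos were of a mixed CD1, 129/ola and C57BL6 background. Each genotype had 3 pools of cells, called SF3, SF4 and SF5_6 in both groups, and the number of embryos or litters behind a pool is not labelled. P-values of the genotype comparison therefore measure the spread between these pools. In fits with the pool name as a term, p-values measure only the disagreement left between libraries of the same name once genotype is fitted.

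FGF ligands bind receptor tyrosine kinases at the cell surface, which signal through RAS and the ERK kinases to switch on target genes. Among these targets are Etv4 and Etv5, which act as effectors, and the Sprouty genes, whose products dampen the same signal. In the early forebrain Fgf8 and Fgf17 are known as products of the rostral patterning centre at the front of the telencephalon, and Fgf15 as a ligand with overlapping expression near the midline. The receptors are known to be expressed by the progenitors of the ventricular zone.

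The libraries held 32997423 to 40744672 expected counts, and values are CPM, meaning counts out of 1000000 in the same library. A count of 0 allows a level of up to 3 counts, or 0.0909 CPM in the smallest library. Smad1 stood at 72.7 to 77.8 CPM in controls and 85.7 to 92.8 CPM in libraries labelled SmadNes, and Smad5 at 287 to 300 and 373 to 410 CPM. Both targeted genes were thus higher, not lower, in the libraries labelled SmadNes. A whole-gene count takes in exons outside a floxed part and does not check the deletion, so every direction between genotypes rests on the labels. Prom1, the gene of the sorted protein, stood at 106 to 132 CPM. The 10 radial glia markers summed to 1915 to 2344 CPM, and the 10 neuron markers to 4058 to 5519 CPM, so neuronal RNA was present in every library. Libraries of the same name deviated from their genotype means together, and the 2 SF5_6 libraries stood apart from the other 4.

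The members were compared in 2 ways. The comparison of genotypes asked whether the libraries labelled SmadNes differed from controls. The comparison of pool names asked whether the members differed between SF3, SF4 and SF5_6, with genotype as a term, and rested on 2 libraries per name. Both were fitted over all tested genes with edgeR's quasi-likelihood test, with 0.05 as the limit on the Benjamini-Hochberg adjusted p for calling a gene. The CPM were scaled between libraries by the trimmed mean of M values (TMM).

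The 3 ligands, both Sprouty genes and both ETS factors shared 1 pattern across the pools, and the receptors did not follow it. In both genotypes these 7 genes were highest in SF5_6, intermediate in SF3 and lowest in SF4. This order was seen in 7.42% of all tested genes. Both SF5_6 libraries lay above the other 4 for 9 of the 10 members and 23.1% of tested genes, and both SF4 libraries lay below the other 4 for 7 members and 11.3%. The comparison of pool names called 9 of the 10 members, all but Fgfr1, against 28.8% of all tested genes. The median distance between the highest and lowest name was 2.14-fold over the members and 1.19-fold over all tested genes. On simulated counts the fit with pool names made more false calls than its threshold allows. No member was called between genotypes, and neither was any other tested gene, so the background was 0%.

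**Figure D1:**
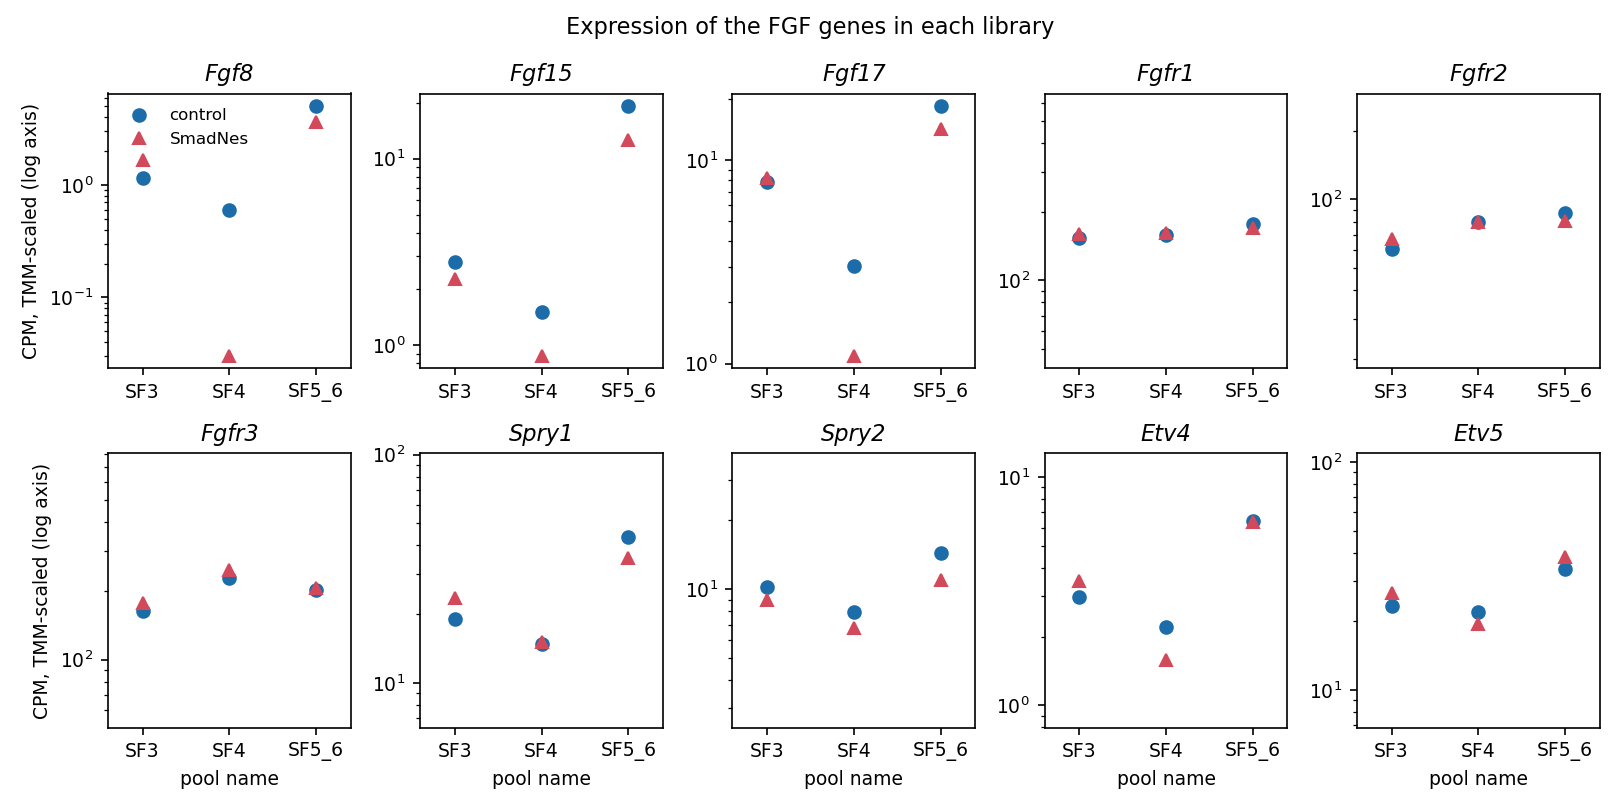
TMM-scaled CPM (log axis, axes differ between panels) of the 10 FGF pathway genes in each library. Circles are control and triangles SmadNes libraries, set out by pool name. The ligands, Sprouty genes and ETS factors are lowest in SF4 and highest in SF5_6, while Fgfr3 is highest in SF4.

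Fgf8 (ENSMUSG00000025219.13, GRCm38 chromosome 19, 45736798 to 45742915, minus strand), the best known organiser signal of the rostral forebrain, was the scarcest ligand in 5 of the 6 libraries per length of exon. Control SF3, SF4 and SF5_6 held it at 1.16, 0.595 and 5.05 CPM, and the libraries labelled SmadNes at 1.66, 0.0303 and 3.63 CPM in the same order. Both SF5_6 libraries lay above, and both SF4 libraries below, all others. SF5_6 exceeded SF4 by 3.71 on the log2 scale (SE 0.54), 13.1-fold, with an adjusted p over pool names of 0.00262 in edgeR. Single libraries moved this distance by a wide margin, to 2.89 without SmadNes SF4 and to 6.95 without control SF4, where the SF4 level rests on 1 count. DESeq2's likelihood ratio test did not call it, at an adjusted p of 0.115. The counts behind these values were small, from 1 in SmadNes SF4 to 172 in control SF5_6.

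Fgf15 (ENSMUSG00000031073.6, chromosome 7, 144896531 to 144900953, plus strand), the mouse counterpart of human FGF19, had the smallest adjusted p of the members over pool names. Control SF3, SF4 and SF5_6 stood at 2.80, 1.51 and 19.2 CPM. The libraries labelled SmadNes stood at 2.26, 0.879 and 12.6 CPM in the same order. The 2 SF5_6 libraries were thus far above the other 4, which did not exceed 2.80 CPM. SF5_6 exceeded SF4 by 3.72 (SE 0.16) on the log2 scale, 13.2-fold, and SF3 by 2.63 (SE 0.14), 6.19-fold, with an edgeR adjusted p of 4.43e-06.

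Fgf17 (ENSMUSG00000022101.5, chromosome 14, 70636203 to 70642268, minus strand), the closest relative of Fgf8 among these ligands, was the most abundant of the 3. It made up 52.2% to 72.3% of their summed CPM per kb of exon, with the lowest shares in the 2 SF5_6 libraries. Control SF3, SF4 and SF5_6 stood at 7.81, 3.02 and 18.5 CPM, and libraries labelled SmadNes at 8.20, 1.09 and 14.2 CPM. The 3 pool names did not overlap. SF5_6 exceeded SF4 by 2.98 (SE 0.26) on the log2 scale, 7.88-fold, with an edgeR adjusted p of 0.000213. Without control SF4 this distance was 3.80, and without SmadNes SF4 it was 2.51.

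Together the 3 ligands summed to 42.7 and 30.4 CPM in the SF5_6 libraries (control and SmadNes), 11.8 and 12.1 CPM in SF3, and 5.13 and 2.00 CPM in SF4. A log2 distance above 3 between pool names, as Fgf8 and Fgf15 had, was seen in 0.622% of tested genes, and one above 2, which Fgf17 also passed, in 2.73%. In sorted bulk samples fewer cells expressing a gene and less of its RNA per cell cannot be told apart.

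The receptors, which make a cell able to answer these ligands, were far more even. Fgfr3 (ENSMUSG00000054252.17, chromosome 5, 33721674 to 33737068, plus strand) stood at 164, 227 and 202 CPM in control SF3, SF4 and SF5_6, and at 176, 247 and 205 CPM in the SmadNes libraries. It was highest in SF4, where the ligands were lowest, and lowest in SF3. Its range over pool names was 1.39-fold, with an edgeR adjusted p of 0.000285.

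Fgfr2 (ENSMUSG00000030849.18, chromosome 7, 130162451 to 133123350, minus strand) stood at 60.6, 80.0 and 87.4 CPM in control SF3, SF4 and SF5_6, and at 67.2, 79.6 and 80.3 CPM in SmadNes. It was lowest in the 2 SF3 libraries. The range over pool names was 1.31-fold, with an edgeR adjusted p of 0.00472. Its annotated span runs across many neighbouring genes, some on the same strand, so reads of shared stretches may have been divided between them by estimation.

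Fgfr1 (ENSMUSG00000031565.18, chromosome 8, 25513654 to 25575718, plus strand) stood at 154, 158 and 177 CPM in control SF3, SF4 and SF5_6, and at 159, 162 and 170 CPM in SmadNes. Although both SF5_6 libraries lay above the others, it was the member that did not pass the comparison of pool names, with a range of 1.11-fold and an edgeR adjusted p of 0.0695. The 3 receptors summed to 378 to 489 CPM over the 6 libraries. Per kb of exon Fgfr3 made up 51.6% to 58.8% of the receptor sum, Fgfr1 28.0% to 35.1% and Fgfr2 13.2% to 15.5%.

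Transcripts of the Sprouty genes, whose products are induced by receptor signalling and restrain it, had the order of the ligands over pool names. Spry1 (ENSMUSG00000037211.12, chromosome 3, 37639947 to 37644598, plus strand) stood at 19.0, 14.8 and 43.6 CPM in control SF3, SF4 and SF5_6, and at 23.6, 15.1 and 35.1 CPM in SmadNes. The 3 pool names did not overlap. The log2 distance from SF4 to SF5_6 was 1.40 (SE 0.13), 2.63-fold, with an edgeR adjusted p of 0.000232.

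Spry2 (ENSMUSG00000022114.4, chromosome 14, 105891947 to 105896819, minus strand) stood at 10.2, 7.91 and 14.4 CPM in control SF3, SF4 and SF5_6, and at 8.94, 6.76 and 11.0 CPM in SmadNes. Its pool names did not overlap either, though the gaps were narrower than for Spry1. SF5_6 exceeded SF4 by 0.79 (SE 0.11) on the log2 scale, 1.73-fold, with an edgeR adjusted p of 0.00204.

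Because both Sprouty genes moved together across pools, the 250 bases before each annotated start are shown, from RefSeq on GRCm38.p6, 5′ to 3′ on the strand of the gene. Capitals mark GGAA or its reverse complement TTCC, the core that ETS factors such as Etv4 and Etv5 are known to bind. The windows are chr3:37639697-37639946 (plus strand) and chr14:105896820-105897069 (minus strand).
Spry1: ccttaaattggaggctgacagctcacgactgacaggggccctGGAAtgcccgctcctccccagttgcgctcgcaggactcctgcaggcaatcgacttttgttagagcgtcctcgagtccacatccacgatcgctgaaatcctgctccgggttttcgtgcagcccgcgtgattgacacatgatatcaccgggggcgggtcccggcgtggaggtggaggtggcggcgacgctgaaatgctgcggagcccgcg
Spry2: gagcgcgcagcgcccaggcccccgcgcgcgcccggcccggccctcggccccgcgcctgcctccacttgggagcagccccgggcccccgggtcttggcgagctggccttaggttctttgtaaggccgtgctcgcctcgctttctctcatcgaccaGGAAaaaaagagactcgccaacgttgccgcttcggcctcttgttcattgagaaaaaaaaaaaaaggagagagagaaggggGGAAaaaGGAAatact
The core occurred once before Spry1 and 3 times before Spry2, counting both strands, and 93.4% of the 32851 promoter windows of this length held it at least once. The longer form CCGGAA, which contains the core, was in neither window and in 12.0% of all. These matches describe the letters only and show no binding site.

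Etv4 (ENSMUSG00000017724.14, chromosome 11, 101769742 to 101785371, minus strand), an ETS factor used as a readout of FGF signalling, stood at 2.98, 2.21 and 6.43 CPM in control SF3, SF4 and SF5_6, and at 3.50, 1.58 and 6.34 CPM in SmadNes. The SF5_6 libraries were nearly equal to each other and above the other 4. The log2 distance from SF4 to SF5_6 was 1.74 (SE 0.20), 3.35-fold, with an edgeR adjusted p of 0.000723.

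Etv5 (ENSMUSG00000013089.15, chromosome 16, 22381309 to 22439719, minus strand), its close relative, stood at 23.3, 21.9 and 34.1 CPM in control SF3, SF4 and SF5_6, and at 26.7, 19.6 and 38.1 CPM in SmadNes. The pool names again did not overlap, with SF3 and SF4 close to each other in controls. SF5_6 exceeded SF4 by 0.79 (SE 0.093) on the log2 scale, 1.73-fold, with an edgeR adjusted p of 0.000846. For comparison with the Sprouty windows, the 101 bases before its start that hold no annotated exon are shown, chr16:22439720-22439820 (minus strand).
Etv5: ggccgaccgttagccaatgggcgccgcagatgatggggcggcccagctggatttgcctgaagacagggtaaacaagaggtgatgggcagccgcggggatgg
This window held no GGAA core on either strand, while 68.0% of all windows of this length did, and no CCGGAA, which 3.3% held. Fgf8, Fgf15, Fgf17, Fgfr1 and Etv4 were not among the 5 members matched to the promoter table.

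**Figure D2:**
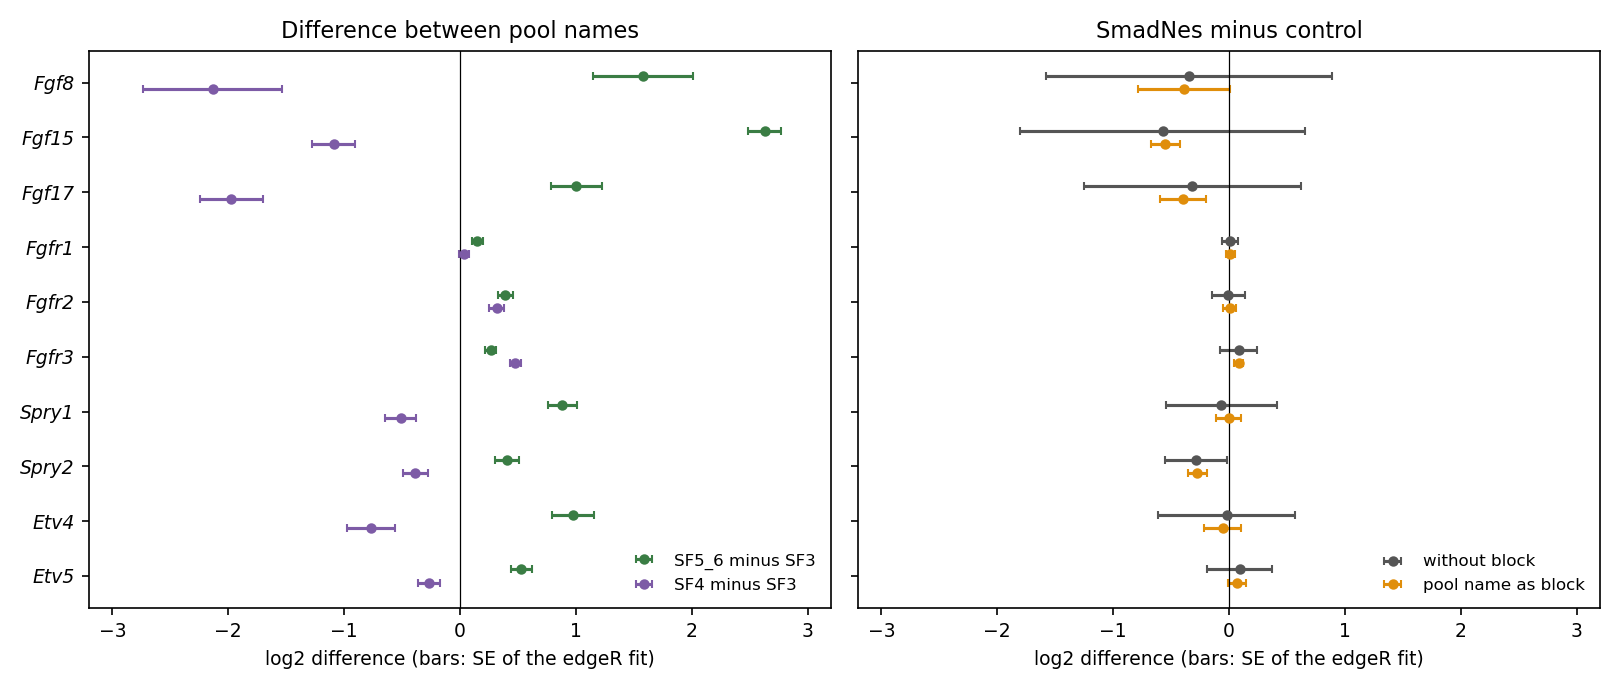
Left, fitted log2 differences of SF5_6 and of SF4 from SF3 for the 10 genes, with standard errors. Right, log2 differences of SmadNes minus control with standard errors, fitted without and with the pool name as a block. Ligands, Sprouty genes and ETS factors lie below 0 in SF4 and above 0 in SF5_6, and the genotype differences have far narrower errors once the pool name is in the fit.

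Since SF5_6 stood apart, the comparison was repeated without both SF5_6 libraries, an analysis chosen after seeing the data. It left SF4 against SF3, and edgeR called 7 of the 10 members against 7.39% of 16917 tested genes. Fgf17 was 4.03-fold lower in SF4 (adjusted p 5.09e-07), Fgf8 4.45-fold lower (0.00418), Fgf15 2.14-fold lower (0.00535), Spry1 1.42-fold lower (0.000481) and Etv4 1.72-fold lower (0.0344). Fgfr3 was 1.39-fold higher in SF4 (adjusted p 2.2e-07) and Fgfr2 1.25-fold higher (0.000559). Spry2 and Etv5 were no longer called, at log2 differences of -0.39 and -0.27 and edgeR adjusted p of 0.0683 and 0.0652, and Fgfr1 was at 0.03 with an adjusted p of 0.873.

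Between genotypes no member passed the test. The median log2 difference, SmadNes minus control, was -0.04 over the 10 members and 0.00 over all tested genes. The 3 ligands were at -0.34 (SE 1.23) for Fgf8, -0.57 (SE 1.23) for Fgf15 and -0.32 (SE 0.94) for Fgf17. The receptors lay between -0.01 and 0.08, the Sprouty genes at -0.07 (SE 0.48, Spry1) and -0.28 (SE 0.27, Spry2), and the ETS factors at -0.02 (SE 0.59, Etv4) and 0.09 (SE 0.28, Etv5). All 10 had an edgeR adjusted p of 1. At an unadjusted p below 0.05 there were 0 members and 1.05% of all tested genes.

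The pool names pair the samples, and with the name as a block edgeR's errors shrank. Even so 0 of the 10 members were called, against 4 of all tested genes (0.0237%). The targeted gene Smad5, higher in SmadNes, was among these 4, with an edgeR adjusted p of 0.00757. At an unadjusted p below 0.05 the blocked fit held 3 members, Fgf15, Spry2 and Fgfr3, against 6.23% of all tested genes. DESeq2 and limma-voom, with or without the block, also called 0 members.

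Fgf15 was lower in the library labelled SmadNes in 3 of 3 pairs. The SmadNes level was 0.806, 0.582 and 0.658 of its control for SF3, SF4 and SF5_6. Across pools the 2 genotypes overlapped, since control SF3 and SF4 lay well below SmadNes SF5_6. In the blocked fit its log2 difference was -0.55 (SE 0.13), with an edgeR adjusted p of 0.397. On chromosome 7, where Fgf15 lies, 9.71% of 1328 tested genes had an unadjusted p below 0.05 in the blocked fit, and the part of this in the Fgf15 value was not tested.

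Spry2 was also lower in 3 of 3 pairs, at 0.878, 0.855 and 0.762 of the control in SF3, SF4 and SF5_6. Its blocked log2 difference was -0.27 (SE 0.086), with an edgeR adjusted p of 0.612. It was the member whose genotype difference kept its sign under every alternative run, between -0.47 and -0.03. Genes lower in SmadNes in all 3 pairs made up 14.3% of those tested. Most markers of the ventral telencephalon moved the same way as Fgf15 and Spry2. Of the 10 ventral telencephalon markers 8 were lower in SmadNes in all 3 pairs and 6 had an unadjusted p below 0.05 in the blocked fit, with none called. Nkx2-1 had an adjusted p of 0.0529 there in edgeR. Of the 10 forebrain patterning genes linked to FGF8, 2 were lower in 3 of 3 pairs, Six3 and Shh. Fewer markers of other regions did so, 2 of 7 for septum and rostral midline and 1 of 8 for cortical hem and choroid plexus. Among tested markers it was 1 of 6 for diencephalon and eye and 0 of 3 for midbrain. Of the 10 neuron markers 5 were lower in all 3 pairs. The part of these regions and cells in the values of Fgf15 and Spry2 was not tested.

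Fgfr3 was higher in SmadNes in 3 of 3 pairs, by ratios of 1.08, 1.09 and 1.01 (SF3, SF4, SF5_6), a pattern shared by 13.8% of tested genes. Its blocked log2 difference was 0.08 (SE 0.036), with an edgeR adjusted p of 0.791. The other 7 members had pairs in both directions. Fgf17, for instance, had SmadNes to control ratios of 1.05, 0.361 and 0.767 for SF3, SF4 and SF5_6, and a blocked log2 difference of -0.40 (SE 0.20). Spry1 had ratios of 1.24, 1.02 and 0.806. For Fgf8 the SF4 pair held 24 counts in the control and 1 in SmadNes. The ratio of control to SmadNes was 19.6 there, with a 95% exact counting interval of 3.2 to 807. The SF3 pair of Fgf8 went the other way, with a ratio of SmadNes to control of 1.43.

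Levels can be set side by side between genes only per length, here as CPM per kb of merged exon in the 3 controls. Fgfr3 was highest at 27.6 ± 4.46 (SD, n = 3), followed by Fgfr1 at 16.5 ± 1.25, and the ranges of these 2 neighbours did not overlap. Spry1 came next at 8.88 ± 5.35, below the range of Fgfr1. From there on each gene overlapped the next: Fgfr2 at 7.36 ± 1.34, Etv5 at 6.44 ± 1.62, Fgf17 at 5.79 ± 4.69, Spry2 at 5.19 ± 1.58, Fgf15 at 2.56 ± 3.22, Fgf8 at 1.68 ± 1.80 and Etv4 at 1.25 ± 0.72. With the length of the longest transcript the receptors rose to 46.6 (Fgfr3), 32.3 (Fgfr1) and 17.2 (Fgfr2), and Fgfr2 then stood above Spry1. Control SF5_6 carried much of several means, and without it Fgf15 fell to 0.706, Fgf8 to 0.649, Fgf17 to 3.21 and Spry1 to 5.81.

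The other feedback inhibitors held several genes with the Sprouty pattern. The comparison of pool names called 8 of 10 (28.8% of all tested genes), with a median range of 1.35-fold, and 6 of these, Dusp6, Il17rd, Spry4, Spred1, Spred3 and Dusp7, had the order SF5_6, SF3, SF4 in both genotypes. Dusp6, the phosphatase that inactivates ERK, stood at 14.97, 8.21 and 27.2 CPM in control SF3, SF4 and SF5_6 and at 16.3, 8.13 and 26.2 CPM in SmadNes, a range of 3.27-fold (edgeR adjusted p 1.37e-05). Il17rd, also called Sef, an inhibitor of FGF signalling at the membrane, stood at 31.5, 24.2 and 65.3 CPM in controls and 34.1, 20.4 and 63.5 CPM in SmadNes, a range of 2.89-fold (1.52e-05). Spry4, named after its values were seen, ranged over 4.10-fold (0.0055), and Spred3 over 1.42-fold (0.00134). Spry3 and Spred2 were not called, at adjusted p of 0.371 and 0.239. Dusp4 was called with another pattern, highest in SF3 at 312 and 342 CPM, and Dusp5, also called, had no common order in both genotypes.

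**Figure D3:**
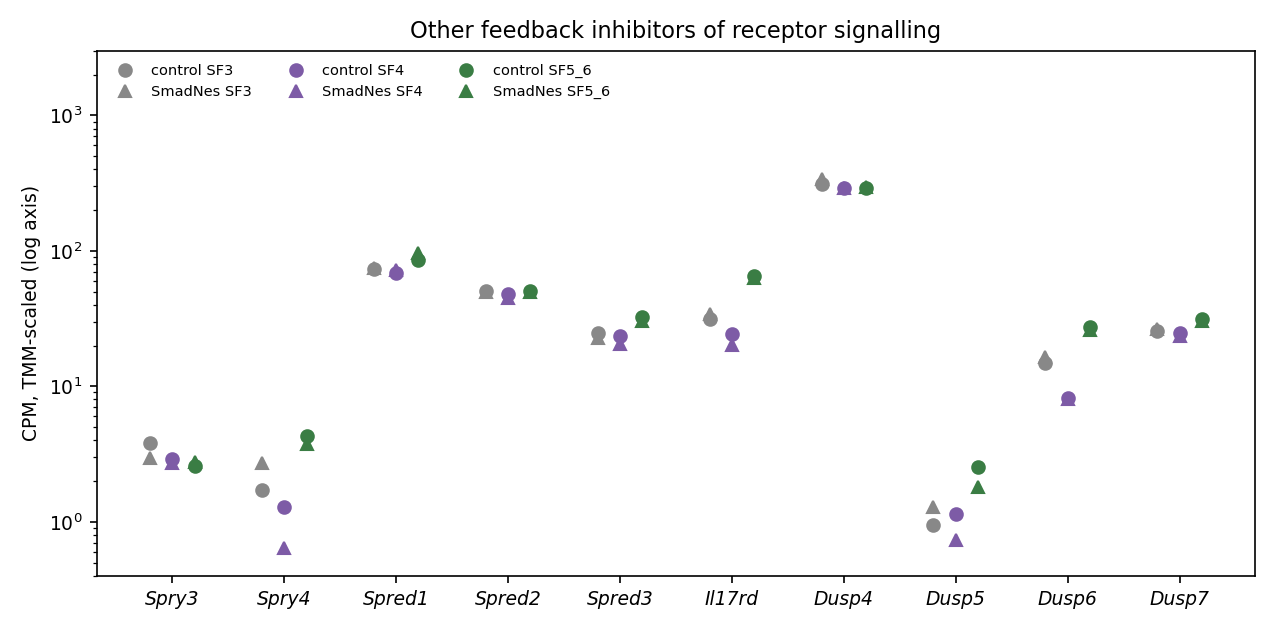
TMM-scaled CPM (log axis) of the 10 other feedback inhibitors of the pathway in the 6 libraries, with colour for the pool name and shape for the genotype. Dusp6, Il17rd and Spry4 spread widely with SF4 lowest and SF5_6 highest, while Spry3 and Spred2 stay close together.

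Of 11 other ETS factors and ERK-responsive genes, 8 were called between pool names, against the same 28.8%, and 3 of those had the order of the ligands. Etv1, the third ETS factor of the Etv4 and Etv5 subfamily, stood at 20.8, 17.6 and 60.9 CPM in control SF3, SF4 and SF5_6 and at 18.4, 12.6 and 57.6 CPM in SmadNes, a range of 3.94-fold with an edgeR adjusted p of 7.56e-06. Ccnd1, which encodes cyclin D1, stood at 192 and 181 CPM in SF5_6 against 70.0 to 88.9 CPM in the other 4 libraries. Ets1 and Egr1 were the other 2 called genes with the order of the ligands. Elk1, Myc and Ier2 were called with their lowest values in SF5_6, and Elk3 was called with its highest values in SF3.

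The relay between receptor and ERK varied little. Among its 21 genes 6 were called, a share near the 28.8% of all tested genes, with a median range of 1.07-fold over pool names. Gab1, an adaptor that docks on activated receptors, was at 62.6 and 64.1 CPM in SF5_6 and at 107 to 109 CPM in the other 4 libraries, which were close to each other. Plcg1, a phospholipase bound by the receptors, and Mapk3, which encodes ERK1, were also lowest in SF5_6, by ranges of 1.24-fold (adjusted p 0.00182) and 1.28-fold (0.00218). Shc1 was the called gene of this group with the order of the ligands.

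Of 15 other secreted ligands only 5 passed the filter on low counts, so their counts say little of the family. Fgf9, named after its values were seen, was the 1 called, at 0.318, 0.273 and 1.06 CPM in control SF3, SF4 and SF5_6 and 0.263, 0.212 and 0.894 CPM in SmadNes. Fgf2, Fgf7 and Fgf18 were not called, and Fgf4, Fgf6 and Fgf21 had a count of 0 in every library. Among the 4 intracellular FGF homologous factors Fgf11 was called, lower in SF5_6 at 13.6 and 13.1 CPM against 24.2 to 26.5 CPM elsewhere. These shares, 1 of 5 tested ligands and 1 of 4 homologous factors, lay below the 28.8% of all tested genes. Of the other receptors and binding proteins 7 of 9 were tested and 2 called, a share near that of all tested genes. These were Flrt1, lower in SF5_6 at 70.2 and 68.0 CPM against 108 to 121 CPM, and Flrt3, higher at 161 and 170 CPM against 99.3 to 128 CPM.

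Of 10 forebrain patterning genes linked to FGF8, 2 were called between pool names with the order of the ligands in both genotypes, Six3 and Shh. Six3, a gene of the rostral forebrain, stood at 5.49, 3.54 and 29.7 CPM in control SF3, SF4 and SF5_6 and 5.39, 1.85 and 15.5 CPM in SmadNes. Shh, the ventral midline signal, stood at 4.11 and 1.35 CPM in SF5_6 and at most 0.52 CPM elsewhere. None of the genes in these 7 lists was called between genotypes, with or without the pool name as a block.

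Markers of forebrain regions and of other cell types moved with pool name too. Ventral telencephalon markers summed to 263 and 191 CPM in SF5_6 (control and SmadNes), 122 and 70.4 CPM in SF3 and 76.5 and 72.2 CPM in SF4, and 7 of the 10 had the order of the ligands. Septum and rostral midline markers summed to 803 and 636 CPM in SF5_6 against 323 to 405 CPM, and 4 of 7 had that order. Diencephalon and eye markers summed to 107 and 105 CPM in SF5_6 against 20.8 to 23.3 CPM, led by Tcf7l2 at 65.9 and 73.6 CPM. Midbrain and midbrain-hindbrain markers summed to 11.3 and 9.48 CPM in SF5_6 against 1.031 to 2.418 CPM. Of these markers of another site of Fgf8 and Fgf17 expression, Pax5 and Pax2 were called with the order of the ligands, over ranges of 2.81-fold and 6.04-fold (edgeR adjusted p 0.00588 and 0.0224). Pax5 stood at 3.08 and 2.22 CPM in SF5_6, 1.47 and 1.60 CPM in SF3 and 0.942 and 0.940 CPM in SF4. En1 and En2 were at 0 to 0.0607 CPM and Wnt1 at 0 to 0.231 CPM in all 6 libraries. Gbx2, which is also a diencephalic gene, stood at 6.69 and 6.23 CPM in SF5_6 and at 0 to 0.0788 CPM in the other 4.

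Among non-neural types, mesenchyme markers summed to 1079 and 1351 CPM in SF5_6, 659 and 919 CPM in SF3 and 469 and 296 CPM in SF4, with 8 of 10 in the order of the ligands. Erythroid markers summed to 1090 and 643, 376 and 356, and 115 and 122 CPM in SF5_6, SF3 and SF4, with 5 of 7 tested markers in that order. Olfactory and surface epithelium markers summed to 39.2 and 39.1 CPM in SF5_6 against 21.1 to 28.1 CPM. Cortical hem and choroid plexus markers summed to 504 and 336 CPM against 253 to 324 CPM. The largest part of the latter sum was Ttr, which was not called, at 210 and 102 CPM in SF5_6. Of the 8 hem and choroid plexus markers 7 were called, against 28.8% of all tested genes. Both SF5_6 libraries lay above the other 4 for 6 of the 8, against 23.1%. Endothelial markers summed to 17.0 to 23.2 CPM, most of it from Kdr, which was not called. Cdh5 and Pecam1 were called and lowest in SF4, at 1.44 and 0.910 CPM for Cdh5 and 0.521 and 0.607 CPM for Pecam1, over ranges of 2.76-fold and 2.50-fold (edgeR adjusted p 0.00391 and 0.0183). Microglia markers were highest in SF3, at 92.1 and 98.6 CPM, and lowest in SF4, at 17.6 and 15.8 CPM. Intermediate progenitor markers were lower in SF5_6, at 1078 and 1008 CPM against 1530 to 1654 CPM, and the neuron sum was lowest there. The radial glia sum was lowest in SF3, at 1915 and 2039 CPM. Of the 10 radial glia markers 8 were called between pool names, against 28.8% of all tested genes, with a median range of 1.2-fold. No marker list was at 0 in any library. The part of these cells and regions in the pattern of the FGF genes was not tested.

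**Figure D4:**
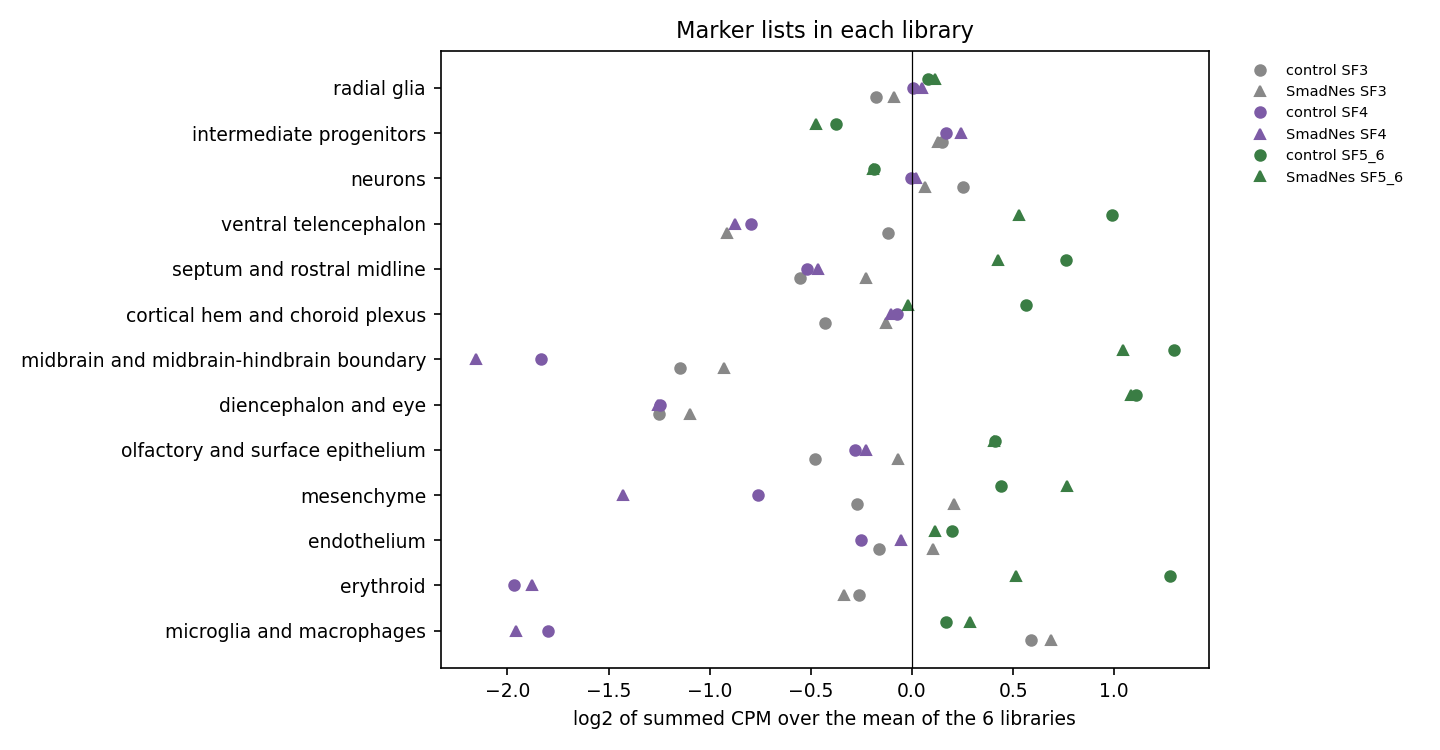
Summed TMM-scaled CPM of each marker list in each library, as log2 over the mean of the 6 libraries. SF5_6 libraries lie highest for diencephalic, midbrain, ventral and septal, mesenchymal and erythroid markers and lowest for intermediate progenitors. The radial glia sum lies between 1915 and 2344 CPM and is lowest in the SF3 libraries.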

How the data were processed

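Per the labels' protocols, stranded mRNA libraries were sequenced as read pairs, and the authors used STAR 2.5.3a (GRCm38) for mapping and RSEM 1.3.0 (GENCODE M15) for quantification. DESeq2 1.18 is listed too in the submitters' processing notes. The authors deposited expected counts per gene, which are whole numbers with no scaling across libraries. Neither the rounding nor the step from isoforms to genes is stated there. All 6 value columns were matched to samples through the pool name and genotype in the titles.

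Counts were fitted with edgeR 4.0.16 in R 4.3.3 (quasi-likelihood F test, TMM scaling, filterByExpr), with DESeq2 1.42.0 and limma-voom 3.58.1 as alternatives. The genotype comparison had genotype as its term, and the comparison of pool names tested both name coefficients with genotype kept. Deviations from the genotype means correlated at 0.59, 0.748 and 0.805 between libraries named SF3, SF4 and SF5_6, and at 0.0497 or less between different names, so the names pair the samples. The biological coefficient of variation was 0.198 without and 0.0556 with the name as a block. The fits were tested on simulated data, in which those with the pool name made more false calls than their threshold allows. Calls past the threshold in such fits should be read with that in mind.

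Positions and exon lengths came from GENCODE M21, which matched 52489 of 52636 gene IDs, and promoter sequences from RefSeq (GRCm38.p6). The members and all gene lists were chosen with earlier results of these data known. The genes named were the members, the targeted genes, the sort marker and, per pathway list, up to 3 genes with the smallest unadjusted p in each comparison among those with a mean of at least 1 CPM. The 3 protein-coding genes most like each ligand were added. Some genes that the rule names are not reported here. Any other gene was chosen after its values were seen. Intervals and floors cover counting error only.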

Additional observations from a re-analysis of the deposited data

How the results depend on the processing

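The count of members called between genotypes was 0 under all alternatives. The count of all genes called between genotypes, 0 in the fit reported, was 4 with the replicate block, 7 with DESeq2, 14 with DESeq2 and the block, 1 with limma-voom and 8 with limma-voom and the block. With the block and the pair SF3, SF4 or SF5_6 left out it was 10, 48 and 149, and the cause was not tested. Since the names pair the samples, these blocked fits compare libraries within a pair, and the block changed no call of a member.

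The sign of the genotype difference was not fixed for 9 members. Of 160 alternative values 32 had the other sign, and the cause was not tested. When a single library was left out, which unbalances the pools, log2 differences ranged from -1.40 to 1.02 for Fgf8, -2.30 to 1.28 for Fgf15, -1.06 to 0.53 for Fgf17, -0.031 to 0.066 for Fgfr1, -0.144 to 0.101 for Fgfr2, -0.052 to 0.194 for Fgfr3, -0.41 to 0.54 for Spry1, -0.60 to 0.55 for Etv4 and -0.19 to 0.31 for Etv5. Leaving out control SF5_6 turned all 3 ligands, Fgfr2, Spry1 and Etv4, and leaving out SmadNes SF4 turned Fgf8, Fgf17, Fgfr3, Spry1 and Etv4. Control SF3 turned Fgfr1 and Fgfr3, SmadNes SF3 turned Fgfr2 and Etv4, control SF4 turned Fgfr1, Fgfr2 and Etv5, and SmadNes SF5_6 turned Fgfr1 and Etv5. Fgfr2 moved to 0.0054 with the block, 0.0018 with DESeq2 and the block, 0.0052 with limma-voom and 0.0025 with limma-voom and the block. Spry1 moved to 0.00063, with DESeq2 and the block, and 0.044 with limma-voom. With the block and a pair left out, Fgfr1 was at -0.0075 (without SF3) and -0.0051 (without SF4), Fgfr2 at 0.0097 (without SF4) and 0.070 (without SF5_6), Spry1 at 0.18 (without SF5_6) and Etv4 at 0.0925 (without SF4).

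Between pool names 117 of 120 alternative values kept their call. The exceptions were Fgf8 under DESeq2's likelihood ratio test (log2 distance 4.19) and, without both SF5_6 libraries, Spry2 (0.39) and Etv5 (0.27). The count of all genes called, 4864 as reported, was 3161 with DESeq2 and 1250 without both SF5_6 libraries, the latter a fit with fewer samples. Levels per kb moved by more than 1 SD for the 3 receptors with the longest transcript. Without control SF5_6, which widens the SD of these genes, Fgf8, Fgf15, Fgf17 and Spry1 moved by more than 1.5 times. The longest transcript moved Fgf15 to 4.32. Depth limits Fgf8 most, with 1 to 172 counts per library.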

Other observations

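The genes most like each ligand over the 6 libraries were searched among 12865 other protein-coding genes averaging 1 CPM or more, by Pearson's r of log2 CPM, as a description. For Fgf8 they were Cpq (0.999), Lpcat3 (0.998) and Matn2 (0.996), for Fgf15 they included Rtn4rl1 (0.999) and Loxl3 (0.999), and for Fgf17 Rnf213 (0.996), Gas2l1 (0.994) and Igfbp4 (0.992). An r above 0.9 was reached by 4.74% of these genes with Fgf8, 6.71% with Fgf15 and 3.48% with Fgf17. Likeness over 6 libraries that share 3 pool names is therefore common. Such an r also takes no account of the size of a change. Lpcat3 stayed within 14.47 to 16.55 CPM and Rnf213 within 16.16 to 21.04 CPM, while Cpq ran from 0.728 to 3.64 CPM.

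Fgf3, a secreted ligand left out of the tests by the filter on low counts, stood at 1.11 and 0.663 CPM in control and SmadNes SF5_6 and at 0 to 0.131 CPM in the other 4 libraries. It was named after its values were seen.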
